A study of Mus musculus with 96 samples.

Results

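The 80 nuclear-encoded subunits of oxidative phosphorylation measured in mouse back-skin epidermis are described here over the day in 4 genotypes of the circadian clock. They were chosen by name: genes of the Ndufa, Ndufb, Ndufc, Ndufs, Ndufv, Uqcr, Atp5 and Cox4 to Cox8 series, the 4 succinate dehydrogenase genes, Cyc1 and Cycs, without the Ndufaf assembly factors. Of 87 such genes, 80 had a mean level of at least 1 over the 96 libraries and are called members below. They are 80 of the 12144 genes that passed this filter and of 22384 in the tables. Values are on an RPKM scale, meaning reads normalized for exon length and library depth, and no label names this unit. Levels just inside the limit were 1.27 (Cox6b2) and 2.01 (Sdhd), and levels just outside it were 0.802 (Cox7a1) and 0.345 (Cox8b).

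Oxidative phosphorylation takes place in the inner mitochondrial membrane. Complexes I and II pass electrons from NADH and succinate to ubiquinone, complex III hands them to cytochrome c, and complex IV reduces oxygen. Complexes I, III and IV pump protons, and the ATP synthase makes ATP from the returning flow. Most subunits are encoded in the nucleus and imported, and in many tissues their transcripts follow the daily cycle of activity, feeding and the clock.

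All mice were male C57BL/6 animals, 8 weeks old, under a daily cycle of 12 h light and 12 h dark with food always present, and 4 mice per genotype gave 1 library each at ZT0, ZT4, ZT8, ZT12, ZT16 and ZT20 (zeitgeber time in hours after lights on). WT mice were Arntl wt/wt and carried both Cre transgenes (K14Cre wt/tg and Syt10-Cre tg/wt). The other 3 genotypes were all Arntl stopFL/stopFL, a stop cassette in the gene of the clock activator BMAL1 that Cre takes out. RERE mice carried K14Cre tg/wt with Syt10-Cre tg/wt, EpiRE mice K14Cre tg/wt with Syt10-Cre wt/wt, and BRE mice K14Cre wt/wt with Syt10-Cre tg/wt. BMAL1 is thus restored in both epidermis and brain in RERE, in epidermis in EpiRE and in brain in BRE. K14 drives Cre in keratinocytes and Syt10 in brain, so melanocytes, T cells and Langerhans cells of the sheet lie outside the K14 expression domain. Every genotype carried at least 1 Cre transgene, and mice with the stop cassette and no Cre are not analysed here.

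Estimated depth was 11.2 M to 32.4 M reads per library (median 16.5 M), and the highest correlation between 2 libraries of a genotype was 0.992. Arntl ranged from 4.69 to 27.4 in WT, from 4.77 to 26.5 in RERE, from 9.56 to 24 in EpiRE and from 11.4 to 14.6 in BRE, and which part of its transcript lies beyond the cassette was not examined. Nr1d1, a direct BMAL1 target, stayed between 3.3 and 5.07 in BRE and reached at least 112 in each of the other genotypes. Keratinocyte markers summed to between 14600 and 24500, with 6 of 7 in the tables. Endothelial markers summed to at most 0.353 and adipocyte markers to at most 1.82, and 8 of 10 skeletal muscle genes averaged under 0.5. In bulk tissue, fewer cells of a type and less RNA per cell cannot be told apart. Each genotype's table was normalized separately, so mean levels are set side by side and not tested between genotypes.

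The members made up 1.37% to 1.87% of the summed values of a library. Atp5b, the catalytic β subunit of the ATP synthase (chromosome 10, 128083273 to 128090391 of mm10, plus strand), had the highest mean level, 326. Cox4i1, the broadly expressed form of a regulatory complex IV subunit, followed with 235 and Atp5a1, the catalytic α subunit, with 225. Over the 24 libraries of a genotype, Cox4i1 ranged from 206 to 293 in WT, from 199 to 287 in RERE, from 205 to 280 in EpiRE and from 193 to 270 in BRE. Atp5a1 ranged from 211 to 257, from 203 to 241, from 207 to 249 and from 188 to 258 in the same order. The ranges of Cox4i1 and Atp5a1 overlapped in every genotype. Those of Atp5a1 lay below the lowest Atp5b library of any genotype (266), and the highest Cox4i1 libraries of each genotype reached or passed that value.

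In the pairs of Cox genes below, 1 form of the pair held nearly all the signal. Cox4i1 stood at 235 against 0.19 for Cox4i2, the oxygen-responsive lung form. Cox6a1 stood at 174 against 0.187 for the muscle form Cox6a2, Cox6b1 at 165 against 1.27 for the testis form Cox6b2, and Cox8a at 152 against 0.345 for the muscle form Cox8b. Cox7a2 had a mean level of 18.2 and the muscle form Cox7a1 one of 0.802, while their relative Cox7a2l stood higher, at 173. The 3 genes of the ATP synthase c-ring, which encode the same mature protein, were all present, with Atp5g2 at 176, Atp5g3 at 108 and Atp5g1 at 68.9. Ndufa4, now known as a complex IV subunit, averaged 92.0, and its relative Ndufa4l2, which lowers complex I activity under hypoxia, averaged 96.3. The 24 libraries of Ndufa4l2 ranged from 69.2 to 157 in WT, from 38.7 to 144 in RERE, from 43 to 120 in EpiRE and from 81.6 to 163 in BRE.

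A pair of low values stood out against their complexes. Uqcr11, a small complex III subunit and one of the 7 genes under the limit, was at 0.176, while the lowest complex III member, Cyc1, was at 32.5. Sdhd, the smaller membrane anchor of complex II, was at 2.01. In the GENCODE annotation 6.27% of the 50-base words of Uqcr11 also occur in another gene, and none of those of Sdhd do. Over the members the median of that share was 2.4%, and it was over 20% in 8 of them, with Atp5o at 41.6%, Atp5g2 at 38.3% and Cycs at 26.1%. How reads shared with such copies were counted is not given in the sources used here, so the levels of these members are uncertain.

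Promoter letters were read for 67 members and 9290 tested genes that RefSeq's promoter table (GRCm38.p6) holds, from 250 bases before to 50 after a start, on both strands. The letters GCATGCGC, bound by NRF1, a factor known for mitochondrial genes, were present in 10 of 67 members (14.9%) and in 5.67% of all promoters. AAGATGGC, the letters of YY1, were present in 14.9% of members and 4.95% of all promoters, and AAGGTCA, part of the site of estrogen-related receptors, in 11.9% and 2.99%. CCGGAAG, bound by ETS factors such as GABPA, was present in 20.9% and 19.4%. CACGTG, the E-box bound by BMAL1 with CLOCK, was present in 7 of 67 members (10.4%) and in 10.7% of all promoters. E-box letters were found in Atp5f1, Atp5g1, Atp5g3, Atp5l, Atp5sl, Ndufa7 and Ndufv1. A match is a description of the sequence and shows no binding.

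Stretches upstream of the start are shown for 4 members described below, 5′ to 3′ on the strand of the gene. Cycs, Ndufa11 and Cox6a1 hold the NRF1 letters and Atp5sl the E-box, which are in capitals. In Ndufa11 and Cox6a1 the NRF1 letters of both strands overlap and form 1 palindrome.
Cycs (chr6:50566582-50566642, minus strand): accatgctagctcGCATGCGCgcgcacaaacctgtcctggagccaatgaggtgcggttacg
Ndufa11 (chr17:56717686-56717751, plus strand): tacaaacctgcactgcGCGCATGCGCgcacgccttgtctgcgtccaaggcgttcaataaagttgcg
Cox6a1 (chr5:115349071-115349129, minus strand): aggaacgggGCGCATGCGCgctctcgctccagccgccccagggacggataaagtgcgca
Atp5sl (chr7:25619352-25619413, plus strand): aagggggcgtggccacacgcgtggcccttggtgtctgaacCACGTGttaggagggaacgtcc

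Daily rhythms were fitted in each genotype as a 24 h cosine curve over its 24 libraries. Sizes given below are the log2 distance from the trough to the peak of that curve, with the standard error. A member was called rhythmic at an adjusted p below 0.05 in limma's F test, with Benjamini-Hochberg adjustment over all 12144 genes.

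In WT, 46 of 80 members were rhythmic, beside 34.4% of all tested genes. Of these 46, 38 peaked between ZT18 and ZT24, the last part of the dark phase. Among all genes called in WT, 47.8% peaked there (16.4% of all tested genes). In BRE, 30 members were rhythmic, beside 17.1% of all genes. Of these 30, 25 peaked between ZT0 and ZT6 and the other 5 between ZT6 and ZT12. Among all genes called in BRE, 56.5% peaked between ZT0 and ZT6 (9.63% of all tested genes). In RERE, 11 members were rhythmic, beside 16.4% of all genes, and 9 of these 11 peaked between ZT0 and ZT6. Among all genes called in RERE, 42.25% peaked there (6.93% of all tested genes). In EpiRE no member was rhythmic in limma's test, beside 2.87% of all genes. There, 7 members (8.75%) had an unadjusted p below 0.05, beside 20.5% of all genes. By the JTK_CYCLE q of the authors' deposited tables, 26 members were rhythmic in WT, 7 in BRE, 7 in RERE and 0 in EpiRE. By their BIOCYCLE q, 15 were rhythmic in WT and 0 in each of the other 3 genotypes. Shares of all genes called by these deposited q-values were not counted, so these counts have no background beside them.

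The rhythms were small. The median fitted size over the 80 members was 0.24 log2 in BRE, 0.22 in WT, 0.19 in RERE and 0.10 in EpiRE, against 0.20, 0.23, 0.18 and 0.15 over all tested genes. Only Atp5s in WT exceeded a 1.5-fold change from trough to peak. The curve averaged over the members peaked at ZT21.9 in WT (0.16 ± 0.04 log2, SE, n = 24 libraries), at ZT2.39 in RERE (0.15 ± 0.06), at ZT14.7 in EpiRE (0.06 ± 0.05) and at ZT4.58 in BRE (0.20 ± 0.06).

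By library, the mean over the members is given in log2 relative to the mean of its genotype. In BRE the libraries of ZT16 stood at -0.10, -0.31, -0.23 and -0.11 and those of ZT8 at 0.12, 0.06, 0.12 and 0.06. The ZT16 and ZT8 libraries of BRE did not overlap. In WT the libraries of ZT20 stood at 0.17, 0.08, 0.14 and -0.01 and those of ZT12 at -0.17, -0.07, 0.01 and -0.11, so that 1 library of each time overlapped. In RERE the ZT16 libraries lay between -0.14 and -0.09 and the ZT4 libraries between -0.02 and 0.12. In EpiRE 1 library of ZT12 stood at 0.27 and its 3 companions between -0.02 and -0.01. Its estimated depth, 11.98 M reads, was the lowest in EpiRE. In RERE the ZT20 libraries stood at 0.139, -0.0703, 0.155 and -0.0957, with 11.25, 17.57, 13.17 and 19.06 M reads. Depth was also low and the mean high in WT ZT20 replicate 1 (12.52 M, 0.17) and RERE ZT8 replicate 2 (12.01 M, 0.205). Other libraries went the other way, such as RERE ZT4 replicate 1 (32.38 M, 0.125), WT ZT16 replicate 2 (12.94 M, -0.0784) and BRE ZT20 replicate 1 (12.87 M, -0.0911). These are picked examples, and libraries of either kind were not counted. The part of depth in these means was not tested. Members often moved together within a library. In the 2 lowest BRE libraries of ZT16, picked for their low mean, 2.5% of the members were above their own mean. That share reached 97.5% in BRE ZT0 replicate 1, and other libraries were mixed, such as EpiRE ZT20 replicate 4 with 51.2%.

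**Figure D1:**
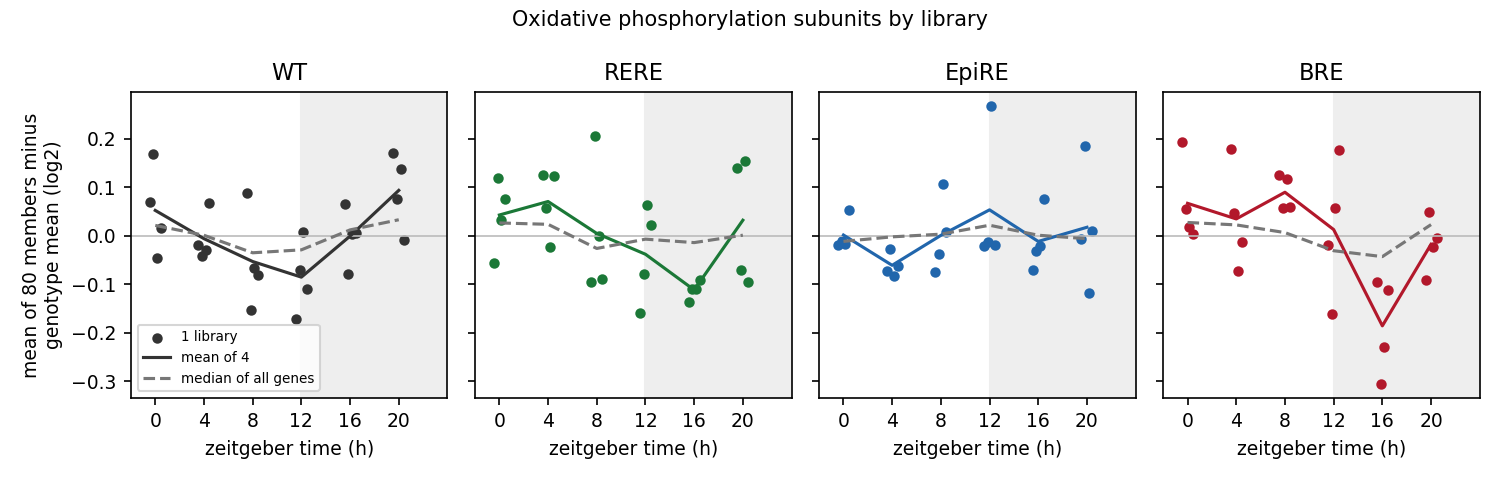
Mean of the 80 members in each library, in log2 relative to the mean of its genotype, against zeitgeber time; points are libraries, coloured lines the mean of 4, dashed lines the mean of the median over all tested genes, and grey the dark phase. BRE falls to -0.19 at ZT16, WT is highest at ZT20 (0.09), and EpiRE has 1 library at 0.27.

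Part of this pattern is shared with the median gene, whose library median lay between -0.09 and 0.09 log2. After each library was shifted to a common median, 28 members were rhythmic in WT (31.8% of all genes), 22 in BRE (12.7%), 6 in RERE (14.8%) and 0 in EpiRE (2.84%). The share of members in WT, 35%, was then near that of all genes. Relative to the median gene, the averaged curve peaked at ZT22.3 in WT, ZT3.09 in RERE, ZT5.82 in BRE and ZT16.4 in EpiRE. The counts also depended on single times, which were left out in turn as an alternative chosen after the data were seen. Without ZT16, 5 members were rhythmic in BRE (Atp5d, Atp5g2, Cox7a2l, Ndufa4l2 and Ndufs1), with 13 without ZT8 and 19 without ZT0. In WT there were 24 without ZT12 and 30 without ZT20. In RERE there were 3 without ZT0 (Atp5a1, Atp5b and Cox7a2), 4 without ZT4 (Atp5a1, Atp5b, Atp5sl and Ndufs1), 6 without ZT16 and 18 without ZT20. The calls over all genes moved too. In BRE they went from 2072 to 978 without ZT16, 1067 without ZT8 and 1777 without ZT0. In WT they went from 4174 to 2932 without ZT12 and 3863 without ZT20. In RERE they went from 1993 to 923 without ZT0, 945 without ZT4, 1587 without ZT16 and 2551 without ZT20. Without the replicate 2 library of ZT16 there were 19 in BRE, and without the replicate 1 library of ZT0 there were 18 in RERE. Those fits called 1445 and 2094 of all genes.

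**Figure D2:**
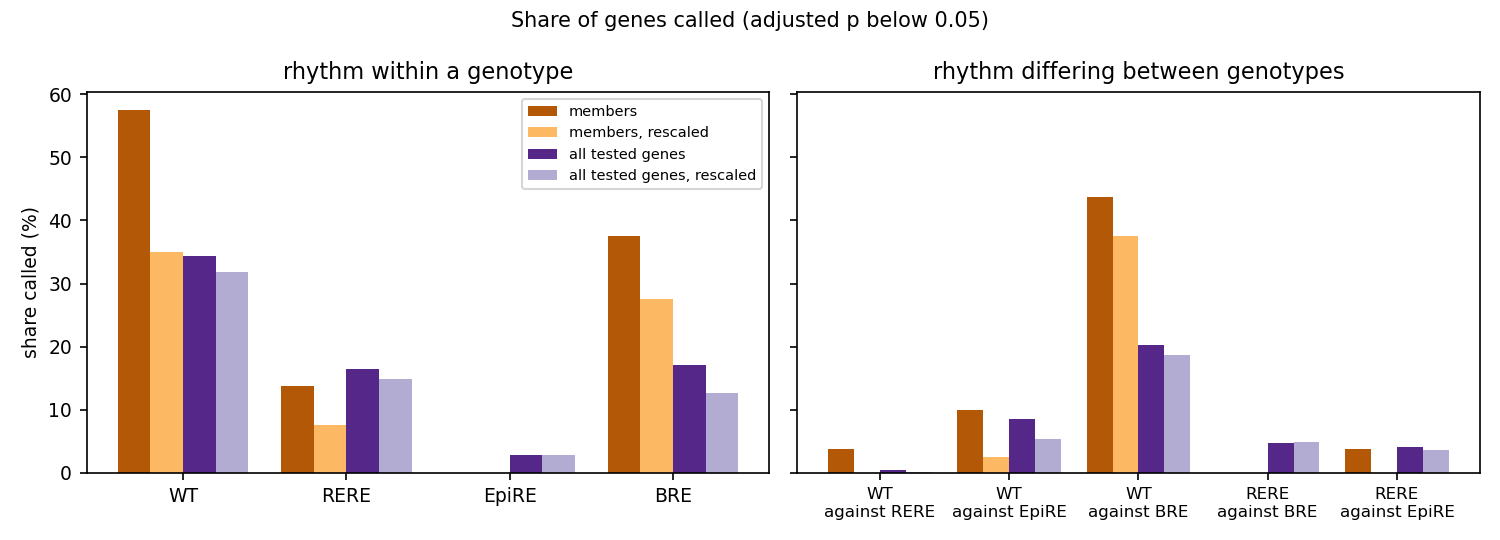
Share in percent of members and of all tested genes called at an adjusted p below 0.05, as deposited and after rescaling to a common library median, for rhythms within a genotype (left) and rhythm differences between 2 genotypes (right). The WT bar of the members falls from 57.5% to 35%, and that of WT against BRE from 43.75% to 37.5%.

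Complex I has a matrix arm, which takes electrons from NADH, and a membrane arm that pumps protons. Of 16 matrix-arm members 8 were rhythmic in WT, 4 in BRE, 1 in RERE and 0 in EpiRE. This and the later counts by complex stand beside 34.4%, 17.1%, 16.4% and 2.87% of all tested genes in that order. Ndufs1 (chromosome 1, 63143596 to 63176833, minus strand), the largest subunit and carrier of iron-sulfur clusters, was called in 3 genotypes. Its 4 WT libraries read 15.7, 15.8, 17 and 14.1 at ZT20 and 12.4, 12.8, 11.1 and 13.4 at ZT12. In BRE they read 14.6, 15.2, 15.9 and 14.3 at ZT0 and 12, 11.3, 12.9 and 13.2 at ZT12. In RERE they read 15, 15.1, 15 and 15.6 at ZT0 and 13.2, 11.1, 13.5 and 13.6 at ZT16. The high and low times did not overlap in any of the 3. The fitted size was 0.28 ± 0.06 log2 in WT with a peak at ZT22.4 (adjusted p = 0.00416, limma), 0.25 ± 0.04 in RERE at ZT1.03 (adjusted p = 0.00149) and 0.28 ± 0.04 in BRE at ZT0.291 (adjusted p = 0.000828). In EpiRE all 24 libraries lay between 12.9 and 15.5 and Ndufs1 was not called (0.07 ± 0.05, adjusted p = 0.669).

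Ndufa9, which sits between the arms, had its clearest rhythm in BRE. Its BRE libraries lay between 39.3 and 46.8 at ZT0 and between 33.1 and 36.4 at ZT16, and the fit gave 0.28 ± 0.05 log2 with a peak at ZT3.57 (adjusted p = 0.00209, limma). In WT it missed the threshold (0.19 ± 0.06, adjusted p = 0.0566). Ndufa12, a matrix-arm subunit, was called in WT with 0.37 ± 0.09 log2 at ZT20.2 (adjusted p = 0.0101). It had the smallest p of all members in EpiRE, without being called (0.33 ± 0.09, peak at ZT19.6, adjusted p = 0.0915). Its EpiRE libraries lay between 28.3 and 40 at ZT20 and between 24.2 and 27.6 at ZT4, without overlap. Ndufv3, an accessory subunit near the NADH site, was called in WT at ZT23 (0.30 ± 0.07, adjusted p = 0.0105).

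Of 20 membrane-arm members, 13 were rhythmic in WT, 5 in BRE, 1 in RERE and 0 in EpiRE. Ndufs5, an accessory subunit on the intermembrane side, had the largest rhythm of the arm in WT. Its WT libraries lay between 61.2 and 74.4 at ZT0 and between 40.6 and 59 at ZT12 (0.46 ± 0.08 log2, peak at ZT22.8, adjusted p = 0.000885, limma), and 21.7% of its 50-base words occur in another gene. In BRE Ndufs5 fitted 0.15 ± 0.09 log2 (adjusted p = 0.443). Ndufc1, a small subunit of the arm, was the 1 member of the arm called in RERE (0.39 ± 0.09 log2 at ZT4.57, adjusted p = 0.0181) and was also called in WT (0.32 ± 0.08 at ZT0.26) and BRE (0.50 ± 0.11 at ZT6.79). Ndufa11, whose promoter is printed above, was called in WT alone of the 4 (0.34 ± 0.07 log2 at ZT20.2, adjusted p = 0.0045), with 0.27 ± 0.08 at ZT4.11 in RERE (adjusted p = 0.0577). Ndufb10, another accessory subunit, was called in WT (0.21 ± 0.07 at ZT18.7, adjusted p = 0.0455, and 0.0878 after rescaling) and ranked second in EpiRE without a call (0.21 ± 0.06 at ZT17, adjusted p = 0.124).

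Complex II is succinate dehydrogenase, shared by the respiratory chain and the citric acid cycle. Of its 4 genes, Sdhb and Sdhc were called in WT and in RERE, and Sdha, Sdhb and Sdhc in BRE. Sdhb, the iron-sulfur subunit, lay between 44.5 and 57.9 at ZT20 in WT and between 38.1 and 42.1 at ZT12 (0.34 ± 0.07 log2 at ZT21.6, adjusted p = 0.00518, limma). It peaked at ZT1.6 in RERE (0.24 ± 0.05, adjusted p = 0.00696) and at ZT2.24 in BRE (0.26 ± 0.07, adjusted p = 0.0404). Sdhc, the larger membrane anchor, lay between 56.5 and 66.2 at ZT0 in BRE and between 41.2 and 51.9 at ZT16 (0.37 ± 0.07 log2 at ZT4.68, adjusted p = 0.00532). After rescaling, the BRE calls of Sdha and Sdhb (adjusted p = 0.0863 and 0.088) and the WT and RERE calls of Sdhc (0.115 and 0.0549) were lost.

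Complex III moves electrons from ubiquinol to cytochrome c. Of 8 members 4 were rhythmic in WT, 3 in BRE, 2 in RERE and 0 in EpiRE. Cyc1 (chromosome 15, 76343523 to 76346260, plus strand), the cytochrome c1 heme subunit, read 41.6, 37.1, 39.4 and 36.3 at ZT20 in WT and 29.2, 30.7, 29.6 and 33.9 at ZT12. In BRE it read 36.9, 34.6, 37 and 34.7 at ZT0 and 28.1, 24.1, 26.4 and 26.1 at ZT16, and in RERE 32.4, 36.1, 33.6 and 35.3 at ZT0 and 25.4, 28, 28.4 and 29.4 at ZT16. These high and low times did not overlap. The fitted peaks lay at ZT20.6 in WT (0.31 ± 0.05 log2, adjusted p = 0.00031, limma), ZT2.69 in RERE (0.24 ± 0.07, adjusted p = 0.0454) and ZT2.55 in BRE (0.31 ± 0.07, adjusted p = 0.0198). Uqcrq, a small subunit, had the largest rhythm of the complex in WT (0.40 ± 0.07 log2 at ZT21.4, adjusted p = 0.00109). Uqcrc1, a core subunit facing the matrix, was called in RERE alone (0.19 ± 0.05 at ZT3.82, adjusted p = 0.0233), with 0.06 ± 0.05 in WT (adjusted p = 0.635). The RERE calls of Cyc1 and Uqcrc1 were lost after rescaling (adjusted p = 0.0885 and 0.0631).

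Cytochrome c, encoded by Cycs (chromosome 6, 50562563 to 50566538, minus strand), carries electrons from complex III to complex IV and also starts apoptosis when released. It had the smallest p of all members in WT. Its WT libraries read 34.1, 33.3, 30.5 and 30.6 at ZT20 and 22.1, 20.6, 23.4 and 23.2 at ZT8, with no overlap. The fit gave 0.53 ± 0.06 log2, or 1.44-fold, with a peak at ZT19.5 (adjusted p = 4.98e-06, limma). In RERE the size was 0.26 ± 0.07 log2 at ZT22.7 (adjusted p = 0.037, and 0.112 after rescaling). In BRE it was 0.26 ± 0.08 at ZT24 (adjusted p = 0.0626) and in EpiRE 0.25 ± 0.09 at ZT18.4 (adjusted p = 0.2), neither of them called. In BRE the 4 libraries of ZT0 read 28, 28.7, 27.4 and 28.5 and lay above every library of that genotype at other times.

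Complex IV reduces oxygen to water. Of 12 members, Ndufa4 included, 6 were rhythmic in WT, 4 in BRE, 1 in RERE and 0 in EpiRE. Ndufa4 lay between 90.2 and 109 at ZT0 in WT and between 79 and 83.9 at ZT12 (0.30 ± 0.07 log2 at ZT21.5, adjusted p = 0.00427, limma). In BRE it lay between 99.5 and 115 at ZT8 and between 76.7 and 83.4 at ZT16 (0.32 ± 0.08 at ZT5.38, adjusted p = 0.024). Cox6c, a small structural subunit, had the largest called rhythm of the complex in BRE (0.36 ± 0.09 log2 at ZT5.69, adjusted p = 0.0205), and missed the threshold in WT (0.18 ± 0.06, adjusted p = 0.0746). Cox5a, a nuclear subunit on the matrix side, was the 1 complex IV member called in RERE (0.27 ± 0.08 at ZT2.69, adjusted p = 0.0488, and 0.125 after rescaling). The most abundant subunit, Cox4i1, was called in none of the 4, with sizes from 0.04 to 0.11 log2. Cox6a1, Cox6b1 and Cox8a were called in WT alone, with 0.24 ± 0.05, 0.23 ± 0.06 and 0.20 ± 0.05 log2, and Cox8a was lost after rescaling (adjusted p = 0.118).

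The ATP synthase joins a catalytic head to a ring that turns in the membrane. Of 15 members 8 were rhythmic in WT, 10 in BRE, 2 in RERE and 0 in EpiRE. Atp5b was called in 3 genotypes. In WT it read 383, 345, 360 and 355 at ZT20 and 308, 303, 314 and 320 at ZT12. In RERE it read 358, 342, 341 and 352 at ZT4 and 284, 300, 291 and 295 at ZT16, and in BRE 353, 353, 335 and 355 at ZT0 and 303, 266, 272 and 298 at ZT16. The high and low times did not overlap, and spreads within a time were small beside the difference, for example 361 ± 16.3 and 311 ± 7.71 (SD, n = 4) in WT. Fitted sizes were 0.22 ± 0.03 log2 at ZT23.1 in WT (adjusted p = 0.00013, limma), 0.23 ± 0.04 at ZT2.92 in RERE (adjusted p = 0.000464) and 0.25 ± 0.05 at ZT3.07 in BRE (adjusted p = 0.00454). In EpiRE the size was 0.02 ± 0.04 log2 (adjusted p = 0.973), and the libraries lay between 292 and 354. Even there the libraries of ZT0 (325 to 341) did not overlap those of ZT4 (301 to 323).

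Atp5a1, the partner of Atp5b in the catalytic head, was called in RERE (0.17 ± 0.03 log2 at ZT2.67, adjusted p = 0.00163, limma) and BRE (0.18 ± 0.04 at ZT2.99, adjusted p = 0.0126), and fitted 0.09 ± 0.04 in WT (adjusted p = 0.17). Atp5o, in the stalk that holds the head, read 129, 138, 142 and 126 at ZT20 in WT and 116, 102, 108 and 111 at ZT8 (0.30 ± 0.05 log2 at ZT21.8, adjusted p = 0.000208). Of its exons 35.6% are also covered by annotated genes on the opposite strand. The subunit with the largest rhythm of the enzyme was Atp5k, a small membrane subunit that joins synthases into dimers, with 0.40 ± 0.07 log2 at ZT22.2 in WT (adjusted p = 0.00117) and 0.48 ± 0.10 at ZT3.77 in BRE (adjusted p = 0.0111). The 3 c-ring genes differed in their calls. Atp5g1 and Atp5g3 were called in WT (peaks at ZT22.6 and ZT21.7) and BRE (ZT5.05 and ZT3.28), and Atp5g2 in BRE (0.35 ± 0.07 at ZT6.84, adjusted p = 0.0116), with 0.12 ± 0.07 at ZT7.28 in WT (adjusted p = 0.324). After rescaling, the BRE calls of Atp5a1 and Atp5g1 (adjusted p = 0.124 and 0.0751) and the WT calls of Atp5g1 and Atp5g3 (adjusted p = 0.0572 and 0.0526) were lost.

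**Figure D3:**
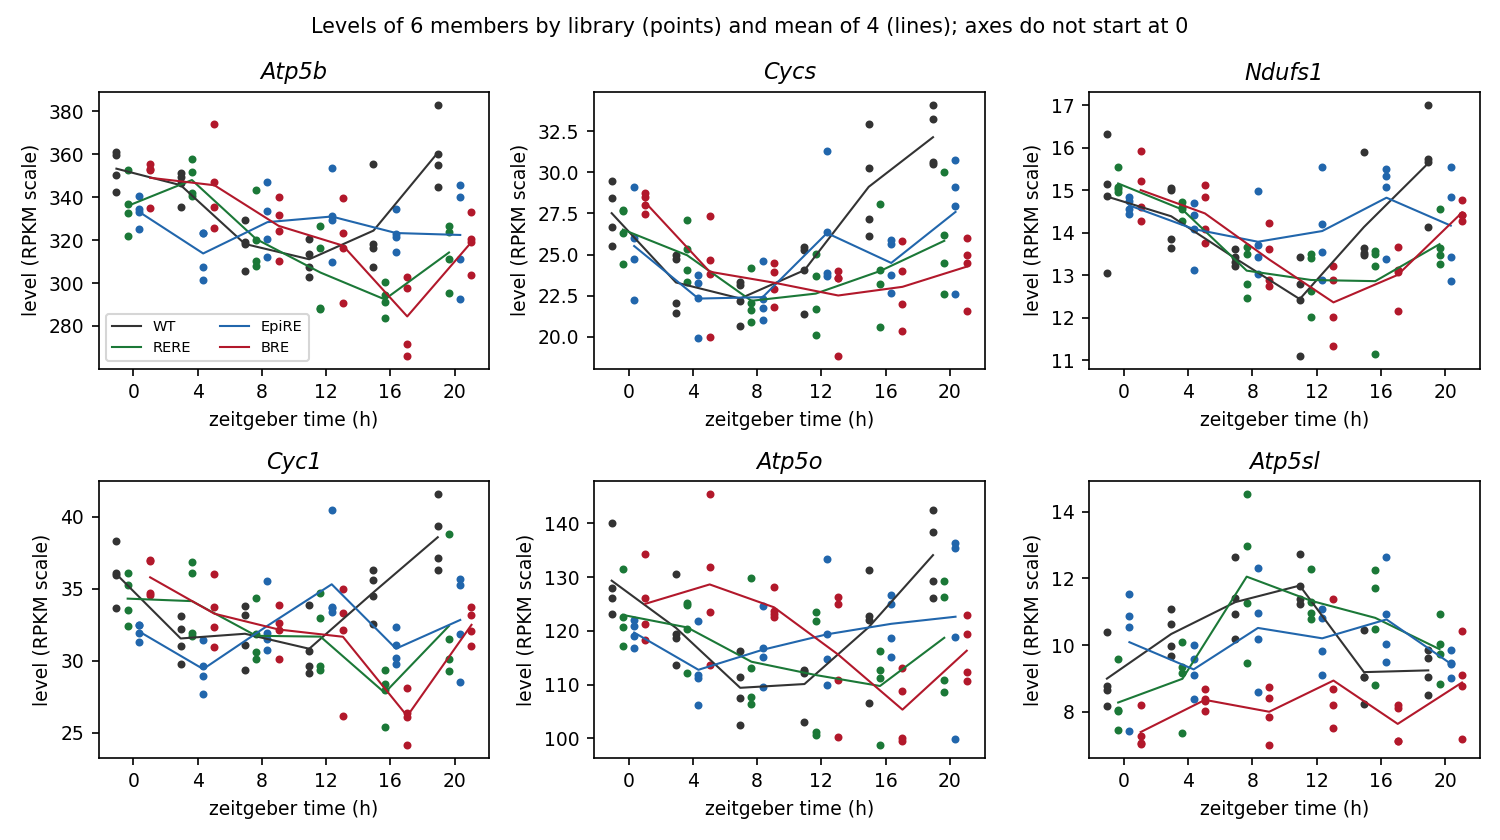
Level of 6 members in each library (points) and mean of 4 (lines) against zeitgeber time in the 4 genotypes; points of 1 time are set side by side, and the axes do not start at 0. In Atp5b, Cycs, Cyc1 and Atp5o the WT line is highest at ZT20, and in Atp5b and Cyc1 the RERE and BRE lines are lowest at ZT16.

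A further 4 members carry names of these series, but their proteins are assembly factors or relatives of subunits. Atp5sl, known today as an assembly factor of complex I's distal membrane arm, read 11.2, 11.4, 12.7 and 11.8 at ZT12 in WT and 10.4, 8.77, 8.66 and 8.15 at ZT0. Its peak was at ZT9.24 in WT (0.40 ± 0.07 log2, adjusted p = 0.000864, limma) and at ZT12 in RERE (0.49 ± 0.11, adjusted p = 0.0095), while 38 of the 46 members called in WT peaked between ZT18 and ZT24. Cox7a2l, which helps complexes III and IV form supercomplexes, peaked at ZT10.3 in WT (0.31 ± 0.07 log2, adjusted p = 0.00598). Atp5s, a relative of Atp5sl, had the largest fitted size of all members in WT, from between 3.31 and 4.06 at ZT12 to between 5.75 and 6.47 at ZT4 (0.64 ± 0.11 log2, 1.56-fold, peak at ZT0.356, adjusted p = 0.000369). Ndufa4l2 peaked at ZT4.72 in WT (0.55 ± 0.16 log2, adjusted p = 0.033) and at ZT7.9 in BRE (0.53 ± 0.12, adjusted p = 0.013).

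**Figure D4:**
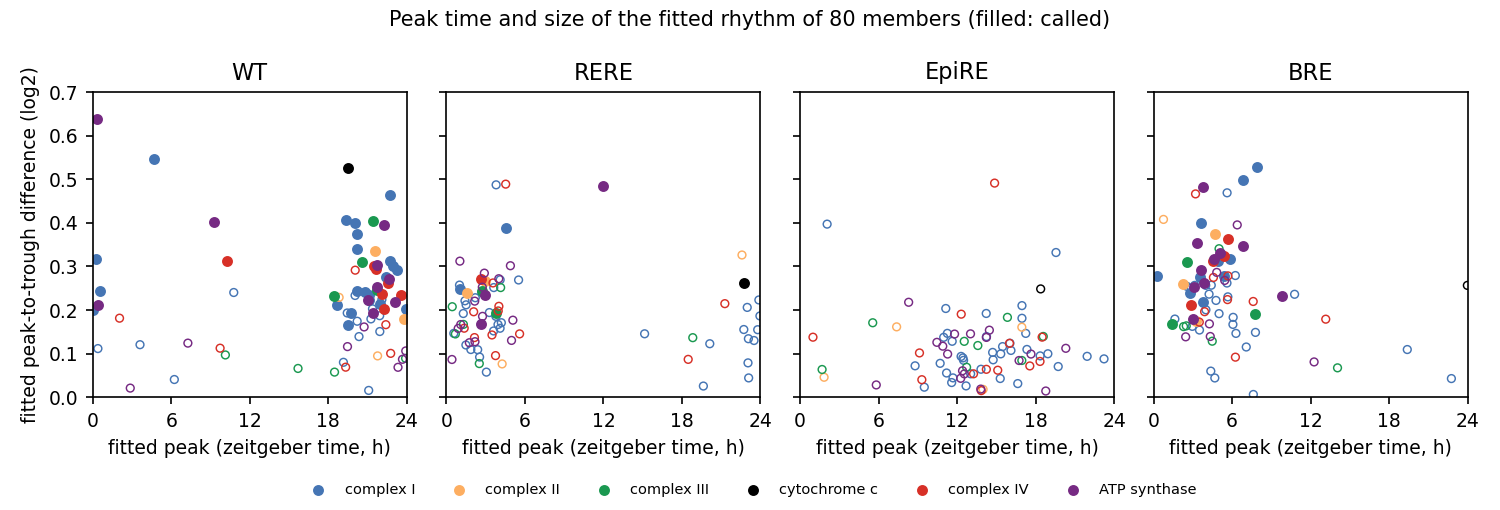
Fitted peak time (zeitgeber hours) and fitted peak-to-trough difference (log2) of the 80 members in each genotype, coloured by complex; filled points were called at an adjusted p below 0.05. Filled points lie mostly between ZT18 and ZT24 in WT and between ZT0 and ZT10 in BRE, and EpiRE has none.

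Peaks were later in RERE and BRE than in WT for every member called in both of a pair. Between WT and BRE, 20 members were called in both, and the BRE peak was later by a median of 5.63 h (range 1.87 h to 8.01 h), against 3.69 h over the 1050 genes called in both. Between WT and RERE, 9 members were called in both and the RERE peak was later by a median of 3.8 h (range 2.61 h to 6.08 h), against 0.869 h over 1420 genes. Between RERE and BRE, 8 members were called in both, with a median difference of 0.48 h (range -0.74 h to 2.23 h), against 0.998 h over 682 genes. After rescaling the shifts were 5.81 h for BRE and 3.53 h for RERE. These comparisons share their WT, RERE or BRE libraries, and the peaks of members are not independent, since the members often moved together within a library.

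**Figure D5:**
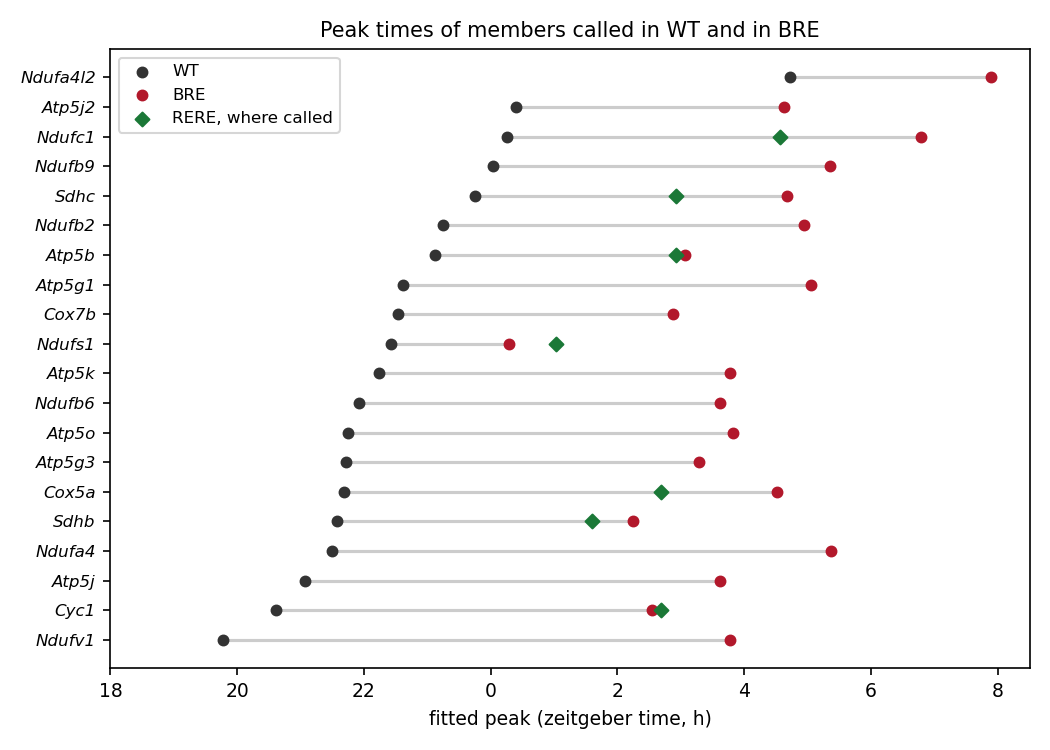
Fitted peak times, in zeitgeber hours, of the 20 members called in both WT (black) and BRE (red), with the RERE peak (green) where called; grey lines join WT and BRE. The red point lies to the right of the black point in each row, by 1.87 h (Ndufs1) to 8.01 h (Ndufv1).

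Differences between genotypes were tested as a change of the cosine and sine terms (limma, adjusted over all 12144 genes). WT and BRE differed for 35 of 80 members, beside 20.2% of all genes. The count of members was 30 after rescaling, 22 with a trend on transcript length removed and 18 to 25 with 1 replicate number left out, lowest without replicate 3. The calls over all genes went from 2457 to 2267 after rescaling and 2142 with the length trend removed. Without replicates 1 to 4 they were 1873, 1012, 1227 and 1544. The 35 members lay in all complexes: 6 in the matrix arm and 11 in the membrane arm of complex I, 3 in complex II, 2 in complex III, 4 in complex IV and 7 in the ATP synthase, with Cycs and Atp5s besides. The fitted size was larger in WT in 13 of these and larger in BRE in 22. Atp5o had the smallest p (adjusted p = 0.000516, and 0.00057 after rescaling), with nearly equal sizes (0.30 and 0.26 log2) and peaks at ZT21.8 and ZT3.83. Ndufa4 (adjusted p = 0.000886) peaked at ZT21.5 and ZT5.38, and Uqcrq (adjusted p = 0.00133) at ZT21.4 in WT, with a fitted maximum at ZT5 in BRE that was not called (adjusted p = 0.0538).

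WT and EpiRE differed for 8 members, beside 8.51% of all genes, and the fitted size was larger in WT in all 8: Atp5b, Atp5g3, Atp5k, Atp5s, Cox8a, Cyc1, Ndufab1 and Uqcrq. Atp5s fitted 0.64 ± 0.11 log2 in WT and 0.13 ± 0.10 in EpiRE (adjusted p = 0.0026 for the difference, and 0.00507 after rescaling). Atp5b (adjusted p = 0.00923) and Cyc1 (adjusted p = 0.0137) followed, and both were lost after rescaling (adjusted p = 0.224 and 0.103), which left Atp5s and Ndufab1. The calls over all genes went from 1034 to 654 after rescaling.

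WT and RERE differed for 3 members, Ndufa11, Cyc1 and Atp5b, beside 0.453% of all genes, and for 0 after rescaling or with any replicate number left out. The calls over all genes fell as well, from 55 to 10 after rescaling and to 1, 2, 0 and 1 without replicates 1 to 4. The adjusted p was 0.0488 for Ndufa11 and Cyc1 and 0.0493 for Atp5b, and 27 members (33.8%) had an unadjusted p below 0.05, beside 13.7% of all genes. For Cyc1 the sizes were 0.31 and 0.24 log2 and the peaks ZT20.6 and ZT2.69. RERE and EpiRE differed for Atp5b (adjusted p = 0.0122), Uqcrc1 (adjusted p = 0.0173) and Atp5a1 (adjusted p = 0.0181), beside 4.04% of all genes, and for 0 after rescaling. That pair had 491 calls over all genes, and 433 after rescaling. RERE and BRE differed for 0 members in limma's test, beside 4.79% of all genes, and 2 members had an unadjusted p below 0.05, beside 14% of all genes. The smallest adjusted p there was 0.249, for Ndufv3, followed by Atp5sl (0.49 and 0.08 log2, adjusted p = 0.29) and Ndufs5 (0.26 and 0.15 log2, adjusted p = 0.396).

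Other mitochondrial genes were counted from lists, and the genes named from them were picked after their values were seen. Of 14 citric acid cycle enzymes, 10 were rhythmic in WT, 6 in RERE, 1 in EpiRE (Idh2, the mitochondrial NADP-linked isocitrate dehydrogenase) and 5 in BRE, and after rescaling 8, 0, 1 and 2. Complex I assembly factors were rhythmic for 6 of 15 in WT, 3 in RERE, 1 in EpiRE (Ndufaf2) and 5 in BRE. After rescaling the counts were 4, 3, 1 and 5. The counts were 7 of 19 complex IV assembly factors in WT, 5 in RERE, 1 in BRE (Lrpprc, a stabilizer of mitochondrial mRNA) and 0 in EpiRE. With rescaling they were 5, 5, 1 and 0 in that order. Assembly factors of complexes II, III and V gave 5 of 12 in WT, 0 in RERE and EpiRE and 1 in BRE (Uqcc1). Factors of mitochondrial DNA transcription and replication gave 4 of 10 in WT, 1 in RERE (Tfb1m), 1 in EpiRE (Mgme1) and 0 in BRE. In WT, RERE, EpiRE and BRE the rescaled counts were 4, 1, 0 and 0 for the former list. For the latter they were 4, 2, 1 and 1.

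Regulators of mitochondrial genes were rhythmic for 4 of 8 in WT (Nrf1, Gabpb1, Ppargc1b and Pprc1), 1 in RERE (Gabpb1), 0 in EpiRE and 3 in BRE (Nrf1, Gabpb2 and Ppargc1b). The shares of all tested genes given for the lists above apply here too. Nrf1, the factor whose letters are marked above, had a peak at ZT19.7 in WT (0.34 ± 0.06 log2, adjusted p = 0.000599, limma) and at ZT22.3 in BRE (0.33 ± 0.07, adjusted p = 0.0125). Ppargc1b, a coactivator, peaked at ZT15.7 in WT (0.59 ± 0.11) and at ZT21.8 in BRE (0.70 ± 0.17). The 13 subunits encoded by mitochondrial DNA are not analysed here.

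Members are short, with a median exon length of 1778.5 bases against 4176.5 over all tested genes. Short genes (at most 2132 bases) were set against long genes (at least 7301 bases), members left out. The difference, short minus long, had the same sign as the members' average in 13 of 24 libraries in WT. It did so in 17 libraries in BRE, 19 in RERE and 18 in EpiRE. That difference averaged 0.068 log2 at ZT8 and -0.058 at ZT16 in BRE, the times at which the members were highest and lowest. In WT it averaged -0.006 at ZT20 and 0.009 at ZT12, the times of the members' highest and lowest means, and its fitted curve peaked at ZT13, against ZT21.9 for the members. With the trend on length removed from each library, 33 members were rhythmic in WT, 20 in BRE, 9 in RERE and 2 in EpiRE (Ndufa12 and Ndufb10). Over all genes with a length the calls were 4005, 1631, 1986 and 428 in the same order.

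Summed marker levels were compared over the day. The sum of 5 of 7 T cell genes was 71.9 at ZT20 and 36.6 at ZT8 in WT, and 77.9 at ZT20 and 55.8 at ZT16 in BRE. Of these 5 genes, Thy1 alone was called rhythmic in WT and in RERE, Cd3d alone in BRE and none in EpiRE. The sum of 8 mitosis genes was 165 at ZT0 and 55.4 at ZT8 in WT, and 157 and 51.1 at the same times in RERE. In BRE it was highest at ZT4 (141) and lowest at ZT20 (80.7), and in EpiRE it averaged between 103 and 119. All 8 mitosis genes were called rhythmic in WT and in RERE, and 0 in BRE and in EpiRE. The 8 S phase genes summed to 237 at ZT12 and 136 at ZT4 in WT, and to 199 at ZT0 and 132 at ZT16 in BRE. Sums per library were 5.99 to 29 for melanocyte genes, 78.9 to 201 for Langerhans cell genes, 1.11 to 20.7 for fibroblast genes and 7.58 to 192 for blood genes. The part of transcript length and of cell make-up in the members' rhythms was not tested.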

How the data were processed

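RNA of dispase-separated epidermis was sequenced as stranded polyA mRNA libraries, per the labels' protocols. Trimmomatic 0.36, HISAT2 2.2.1, SAMtools 1.3.1, featureCounts 1.6.0, edgeR and mm10 are named in the submitters' processing notes. The deposited log2 expression values carry no unit name; they behave as log2 RPKM with a prior count of 2, from which depth was estimated. The authors' deposited JTK_CYCLE and BIOCYCLE q-values were used only as an alternative. Levels are 2 to the power of the value. Rhythms were fitted with limma 3.58.1 (R 4.3.3; trended variance, cosine and sine of a 24 h period) on genes with a mean level of at least 1, adjusted over all of them. Differences between genotypes are interaction terms of a joint fit with a mean for each genotype. The procedure was tested on simulated data.

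Each library came from its own mouse, per the labels. Replicate numbers did not pair the samples (correlations of same-numbered deviations from -0.41 to 0.38, with medians near 0), so the block appears only among the alternatives. The members and lists were chosen with earlier results of these data known. Genes were named by smallest adjusted p in each genotype and pair, highest level, paralog family, largest rhythm of a complex, and closeness to the level limit; Ndufc1, Cox5a, Arntl, Nr1d1 and genes of the pathway lists were picked after their values were seen. Some results that this rule selects are not reported here. Alternatives were rescaling by median of ratios, another pseudocount, other level filters, a replicate block, time as a factor, untrended variance, left-out libraries or times, and a removed length trend. Positions come from GENCODE M21 (mm10) and promoters from RefSeq. How strand and multiply mapping reads were counted is not given in the sources used here.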

Additional observations from a re-analysis of the deposited data

Results flagged for a closer look

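In 168 groups of 4 libraries (the mean over members and 6 genes, by genotype and time), 8 held a library apart from its companions by Dixon's criterion, and chance alone gives about 1 in 20. The mean over the members stood at 0.05 log2 in EpiRE ZT0 replicate 4, against -0.02, -0.02 and -0.01, and at 0.27 in EpiRE ZT12 replicate 3, against -0.02, -0.02 and -0.01. In the same EpiRE ZT12 library Cyc1 was at 40.46, against 33.41, 33.69 and 33.74. Atp5b in BRE ZT0 replicate 3 was at 335, against 352.8, 353.1 and 355.4. Cycs in BRE ZT12 replicate 2 was at 18.83, against 23.59, 23.6 and 24.02. Ndufs1 was at 15.9 in WT ZT16 replicate 4, against 13.49, 13.52 and 13.64, and at 11.14 in RERE ZT16 replicate 2, against 13.23, 13.51 and 13.57. Atp5o in WT ZT12 replicate 1 was at 103, against 112.2, 112.6 and 112.7.

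Rhythms that differed between genotypes in limma's interaction test, up to 3 per pair, are given with their adjusted p. Between WT and RERE these were Ndufa11 (0.0488), Cyc1 (0.0488) and Atp5b (0.0493). Between WT and EpiRE they were Atp5s (0.0026), Atp5b (0.00923) and Cyc1 (0.0137). Between WT and BRE they were Atp5o (0.000516), Ndufa4 (0.000886) and Uqcrq (0.00133). Between RERE and EpiRE they were Atp5b (0.0122), Uqcrc1 (0.0173) and Atp5a1 (0.0181).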

How the results depend on the processing

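The count of rhythmic members in WT, 46, was 28 after rescaling (27 of them among the 46), 29 with time as a factor, 26 by the authors' deposited JTK_CYCLE q, 24 without ZT12 and 30 without ZT20. Over all genes the 4174 calls in WT became 3860 after rescaling and 4262 with time as a factor. With time as a factor the members' count fell while that of all genes did not. All-gene calls without a time are given above, and by JTK_CYCLE they were not counted. The count in RERE, 11, was 6 after rescaling, 7 with time as a factor, 7 by JTK_CYCLE, 3 without ZT0, 4 without ZT4, 6 without ZT16 and 18 without ZT20. The 1993 calls over all genes in RERE became 1800 after rescaling and 1306 with time as a factor. The count in BRE, 30, was 7 by JTK_CYCLE, 19 without ZT0, 13 without ZT8 and 5 without ZT16. EpiRE went from 0 to 2 with the length trend removed, and its calls over all genes from 349 to 428. With 1 library left out, the range was 39 to 52 in WT, 8 to 18 in RERE, 0 to 1 in EpiRE (1 without ZT8 replicate 3) and 19 to 40 in BRE. Calls over all genes were 4042 without WT ZT8 replicate 2 (39 members) and 4166 without WT ZT8 replicate 1 (52 members). They were 2094 without RERE ZT0 replicate 1 (18 members). In BRE they were 1445 without ZT16 replicate 2 (19 members) and 2015 without ZT4 replicate 3 (40 members).

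The count of differences between WT and RERE, 3, was 0 after rescaling, without a level filter, with time as a factor, with untrended variance, with the length trend removed and without any replicate number (0 to 0). Over all genes the 55 calls became 10, 2, 17, 12 and 12 in that order, and 1, 2, 0 and 1 without replicates 1 to 4. The count between WT and EpiRE, 8, was 2 after rescaling, 5 without a filter, 3 with time as a factor, 3 with the length trend removed (Atp5s, Atp5sl and Cox7a2l, of which Atp5s was among the 8) and 1 to 6 without a replicate number. There the 1034 calls over all genes became 654, 729, 629 and 781 in that order, and 274, 201, 145 and 1376 without replicates 1 to 4. The count between WT and BRE, 35, was 22 with the length trend removed and 18 to 25 without a replicate number. The all-gene calls of that pair are given above. The count between RERE and EpiRE, 3, was 0 after rescaling, with time as a factor and with the length trend removed, and 0 to 2 without a replicate number. For this pair the 491 calls over all genes became 433, 276 and 503 in that order, and 74, 178, 233 and 256 without replicates 1 to 4. Between RERE and BRE the count was 0 under each alternative run. The cause of these changes was not tested.

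With the replicate block the counts were 44, 8, 0 and 26 in WT, RERE, EpiRE and BRE, and 0, 7, 34, 0 and 3 for the differences in the order of the report's pairs WT and RERE, WT and EpiRE, WT and BRE, RERE and BRE, RERE and EpiRE. With that block the calls over all genes were 4020, 2022, 206 and 1829, and 4, 910, 2264, 592 and 416 for the differences. Of 1804 recomputed values of single members, 1605 kept their side of the threshold, 184 lost and 15 gained a call. A large move of the peak was scored only for rhythms called in the main fit, and was found in 0 of these. It could not be scored with time as a factor or for differences between genotypes. Removed length trends and left-out times were chosen after seeing the data.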
